A study of Mus musculus with 6 samples.

Results

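The miR-29 family was followed through small RNA sequencing of renal cortex from 6 C57BL/6 mice. It was taken as every mature miRNA in the count tables that bears one of 7 names, namely the 3 guide arms mmu-miR-29a-3p, mmu-miR-29b-3p and mmu-miR-29c-3p and the 4 passenger arms mmu-miR-29a-5p, mmu-miR-29b-1-5p, mmu-miR-29b-2-5p and mmu-miR-29c-5p (the mouse prefix mmu is left out from here on except where values begin), out of 1900 mature names in all. The 3 NASHTofo mice ate a diet rich in fat, cholesterol and bile salt, written HF/HC/HS/BA in the labels, with tofogliflozin mixed in, for 8 weeks. The 3 NASH mice ate the same diet without the drug for the same time. Both groups therefore carry the diet, and a comparison with normal chow was not analysed here. Tofogliflozin inhibits SGLT2, the cotransporter through which the proximal tubule takes glucose back from the filtrate. The comparison asks what the drug adds to the diet in the kidney. No age or sex was given for the mice in the sources used here.

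A miRNA gene is transcribed into a hairpin that is trimmed to a duplex of a 5p and a 3p arm. As a rule the guide arm is loaded into Argonaute and pairs through its seed with messenger RNAs, while the passenger arm is mostly discarded. The miR-29 guides repress collagens, elastin, fibrillin and other matrix genes, and in models of kidney fibrosis TGF-β lowers them. The family also targets the DNA methyltransferases Dnmt3a and Dnmt3b, the Tet enzymes that oxidise methylcytosine, and the survival factor Mcl1.

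The mature guides are shown because the family is defined by their shared seed, and because they differ so little that read assignment between them matters. Sequences and mm10 positions are from RefSeq (build GRCm38.p6), which held all 7 members, and capitals mark the seed, bases 2 to 8.
miR-29a-3p: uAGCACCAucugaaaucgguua
miR-29b-3p: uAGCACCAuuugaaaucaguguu
miR-29c-3p: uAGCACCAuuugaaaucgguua
All 3 guides carry the seed AGCACCA, and no other mature name in the tables that RefSeq matched carries it. Counting from 1 at the 5′ end, miR-29a-3p and miR-29c-3p differ at 1 base, C10U. From miR-29c-3p to miR-29b-3p the changes over the first 22 bases are G18A, U21G and A22U. The tables do not say how reads that match both miR-29a-3p and miR-29c-3p with a mismatch were assigned, so the split between these guides is uncertain.

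The passenger arms have no seed in common with the guides or with each other. They are printed in the same way.
miR-29a-5p: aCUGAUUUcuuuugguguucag
miR-29b-1-5p: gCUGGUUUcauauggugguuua
miR-29b-2-5p: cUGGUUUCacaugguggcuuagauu
miR-29c-5p: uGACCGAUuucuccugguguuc
The passengers of both miR-29b hairpins are near copies set 1 base apart: miR-29b-1-5p read from base 2 matches miR-29b-2-5p read from base 1 at 19 of 21 bases. Of these 4 seeds, only UGGUUUC of miR-29b-2-5p occurs in another matched name, miR-6338.

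The 4 hairpins lie in 2 clusters, and each cluster holds 1 copy of miR-29b. They are printed whole to show the arms, in capitals, and the loop between them.
Mir29b-1: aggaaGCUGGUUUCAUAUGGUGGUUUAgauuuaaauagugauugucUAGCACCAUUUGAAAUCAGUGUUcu
Mir29a: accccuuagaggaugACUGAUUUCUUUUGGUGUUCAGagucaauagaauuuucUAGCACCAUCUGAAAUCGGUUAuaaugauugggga
Mir29b-2: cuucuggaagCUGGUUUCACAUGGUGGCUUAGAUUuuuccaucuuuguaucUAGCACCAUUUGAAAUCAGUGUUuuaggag
Mir29c: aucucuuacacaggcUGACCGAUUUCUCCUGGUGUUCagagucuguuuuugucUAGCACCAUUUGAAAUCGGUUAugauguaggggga
In mm10, Mir29b-1 (chr6:31063023-31063093) and Mir29a (chr6:31062660-31062747) are on the minus strand with 275 bases between them. Mir29b-2 (chr1:195037040-195037120) and Mir29c (chr1:195037547-195037634) are on the plus strand with 426 bases between them. In GENCODE M21 the chromosome 1 pair lies in an exon (chr1:195033823-195037904) of the non-coding transcript A330023F24Rik and, on the opposite strand, under the 3′ UTR of Cd46. On chromosome 6, Mir29b-1 shares 2 bases at its 5′ end with the long non-coding gene Gm27019, and Mir29a overlaps no other annotated gene. Both hairpins of miR-29b give the same 3p sequence, so a miR-29b-3p read cannot be traced to a cluster, whereas each of the 4 passenger arms can.

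Target sites are shown to tie the seed to the matrix genes for which the family is known, in a list of known targets. The 3′ UTRs of GENCODE M21 were searched on the transcript strand for TGGTGCT, the 7 bases opposite the seed, and for TGGTGCTA, which adds an A opposite base 1 and contains the shorter match. Capitals mark the match.
Col1a1: tgggaaggaatttcTGGTGCTA
Col3a1: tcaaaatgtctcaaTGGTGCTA
Col4a1: ccaccgtcacaacaTGGTGCTA
Eln: gacctcatcaacgtTGGTGCTA
Fbn1: ttctgttgtctgttTGGTGCTA
Mcl1: tagagtcttaaccaTGGTGCTA
These stretches lie at chr11:94952524-94952545 (plus strand) for Col1a1 and chr1:45348968-45348989 (plus) for Col3a1, which encode chains of the fibrillar collagens types I and III. For Col4a1, a basement membrane collagen, the site is at chr8:11199761-11199782 (minus). Those of the elastic fibre genes Eln and Fbn1 are at chr5:134703736-134703757 (minus) and chr2:125301173-125301194 (minus), and that of Mcl1 is at chr3:95661845-95661866 (plus). Of the 17 listed genes, 15 had the 7-base match, at 43 places in all, and 12 had the 8-base match. Of the 6 collagen genes, 5 had a match, and Tet1, Tet2 and Tet3 held 20 matches between them. These letters were not in the 3′ UTRs of Col1a2 and Sparc that were searched. Across 21037 annotated 3′ UTRs, 12.6% held TGGTGCT and 2.81% held TGGTGCTA. With only the first 1000 bases of UTRs at least that long counted, 9 of the 12 listed UTRs and 10.1% of 9832 UTRs held the 7-base match. The genes were listed as known targets of the family, so setting their share beside that of all UTRs is not an independent comparison. A match is a description of the sequence, and messenger RNA was not measured in these libraries.

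Libraries held 8598518 to 29766679 counts over all rows, with the fewest in NASHTofo replicate 2, and 696 to 788 of the mature names were counted at least once per library. Values are given as CPM, that is counts scaled to a common library size corrected by TMM factors (edgeR's trimmed mean of M values), each name being represented by its largest row. A count of 0 would allow up to 0.131 to 0.452 CPM, taking 3 counts as the limit, and this covers counting error only, since reads without molecular identifiers are not independent molecules. On the first principal component of log2 CPM, which took 52.0% of the variance, NASHTofo replicate 2 scored 13.8 and the other 5 libraries between -6.17 and 0.14. That library therefore stands apart. Differences of the tested miR-29 arms, both sums, miR-29a-3p over miR-29c-3p and the tested arm ratios are given with and without it. Shares of reads, the arm ratio of Mir29a, miR-29b-3p over miR-29a-3p and summed passengers over summed guides are given with it only. Between groups, differences were tested with edgeR's quasi-likelihood test over all 460 miRNAs that passed the filter on low counts, of which 0 (0%) reached an adjusted p of 0.05. At an unadjusted p under 0.05 there were 23 (5%), of which 11 were lower in NASHTofo (2.39% of those tested), and 55 (12%) had groups that did not overlap. DESeq2 called 2 of them, miR-204-5p and miR-346-5p, and limma-voom called 0.

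Among the guides, miR-29a-3p made up nearly the whole family in every library. For none of the 3 guides was a difference between NASHTofo and NASH cortex detected (edgeR, adjusted p = 0.877 for each). miR-29a-3p took 92.6% ± 1.47 of guide reads in NASHTofo and 93.9% ± 0.620 in NASH (SD, n = 3 each). The share of miR-29b-3p was 5.70% ± 1.55 in NASHTofo and 4.29% ± 0.460 in NASH. The share of miR-29c-3p was 1.68% ± 0.148 in NASHTofo and 1.80% ± 0.169 in NASH. The lowest share of miR-29a-3p (90.9%) and the highest of miR-29b-3p (7.49%) were those of NASHTofo replicate 2. By mean CPM over the 6 libraries, miR-29a-3p ranked 74, miR-29b-3p 181 and miR-29c-3p 221 among all names, and no library departed from the order a, b, c. Levels of different miRNAs are compared here as reads, with no correction for length or for ligation.

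mmu-miR-29a-3p, the leading collagen repressor of the family by reads, stood at 708, 444 and 875 CPM in NASHTofo replicates 1, 2 and 3 and at 756, 849 and 749 CPM in NASH replicates 1, 2 and 3. Both the lowest and the highest library were NASHTofo, and the NASH libraries fell between them. The means were 675 ± 217 CPM in NASHTofo and 785 ± 56.0 CPM in NASH (SD, n = 3 each). The estimated log2 fold change was -0.22 ± 0.23 (SE). In edgeR the adjusted p was 0.877, with a 95% interval of the fold from 0.596 to 1.24, and the exact 2-sided permutation p was 0.5. That permutation test has 20 arrangements, so its smallest possible p is 0.1. Without NASHTofo replicate 2 the log2 fold change was 0.01, on the other side of 0. In these bulk samples, fewer cells of a type and less RNA per cell cannot be told apart.

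mmu-miR-29b-3p, the guide made by both clusters, had 36.5, 36.5 and 44.9 CPM in NASHTofo replicates 1, 2 and 3, against 34.3, 34.6 and 38.3 CPM in NASH replicates 1, 2 and 3. The groups overlapped, since only NASHTofo replicate 3 lay above the highest NASH library. Its log2 fold change was 0.14 ± 0.16 (edgeR, adjusted p = 0.877), with means of 39.3 ± 4.83 CPM in NASHTofo and 35.7 ± 2.20 CPM in NASH (SD, n = 3 each). It was 0.06 without NASHTofo replicate 3, 0.19 without NASHTofo replicate 2 and 0.23 without NASHTofo replicate 1. Its level in NASHTofo replicate 2 equalled that in NASHTofo replicate 1, whereas the other guides were lowest in that library. Per 100 reads of miR-29a-3p there were 5.16, 8.24 and 5.13 reads of miR-29b-3p in NASHTofo replicates 1, 2 and 3, and 4.54, 4.07 and 5.11 in NASH replicates 1, 2 and 3. These ranges did not overlap, though the gap between 5.13 in NASHTofo and 5.11 in NASH is small. The highest value was that of NASHTofo replicate 2, where miR-29a-3p was lowest. This ratio was formed after its values were seen, and its difference was not computed without that library.

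mmu-miR-29c-3p, the guide that only the chromosome 1 cluster makes, had 190, 52 and 271 reads in NASHTofo replicates 1, 2 and 3, against 313, 207 and 246 reads in NASH replicates 1, 2 and 3. Scaled, this was 14.1, 7.76 and 14.99 CPM in NASHTofo and 13.8, 15.1 and 16.0 CPM in NASH. NASHTofo replicate 2 was the lowest, as for miR-29a-3p, and the remaining 5 libraries overlapped. The log2 fold change was -0.27 ± 0.26 (edgeR, adjusted p = 0.877), and it was -0.04 without NASHTofo replicate 2.

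**Figure D1:**
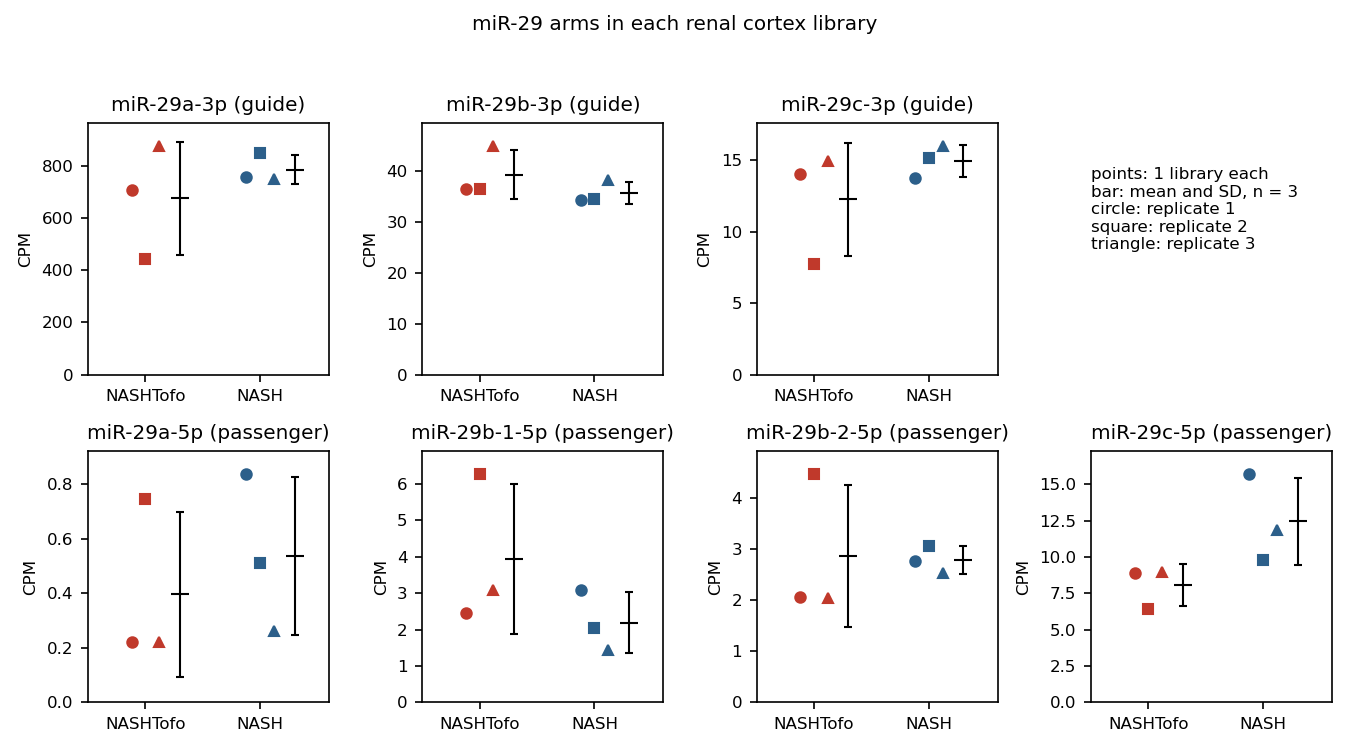
Level of each miR-29 arm in CPM (vertical axes, starting at 0) in the 3 NASHTofo and the 3 NASH libraries; each point is 1 library and the bar beside each group is the mean with the SD. miR-29a-3p and miR-29c-3p are lowest in NASHTofo replicate 2 (444 and 7.76 CPM), where miR-29b-1-5p and miR-29b-2-5p are highest (6.26 and 4.47 CPM).

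Because the 3 guides share their seed, their sum is the level of that seed. It was 758, 488 and 935 CPM in NASHTofo replicates 1, 2 and 3 and 804, 899 and 803 CPM in NASH replicates 1, 2 and 3. The groups overlapped, with a log2 difference of -0.25 ± 0.28 (SE, exact permutation p = 0.5) that was 0.01 without NASHTofo replicate 2. Across libraries the guides together took between 0.0493% and 0.0980% of all counts.

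The guide of the chromosome 6 cluster and that of the chromosome 1 cluster kept a ratio between 46.8 and 58.4 in all 6 libraries. There were 50.4, 57.2 and 58.4 reads of miR-29a-3p for each read of miR-29c-3p in NASHTofo replicates 1, 2 and 3, and 54.9, 56.1 and 46.8 in NASH replicates 1, 2 and 3. The means were 55.3 ± 4.32 in NASHTofo and 52.6 ± 5.03 in NASH (SD, n = 3 each). This gave a log2 difference of 0.07 ± 0.11 (SE) and an exact permutation p of 0.5, so a shift between the guides of both clusters was not detected. The difference was 0.05 without NASHTofo replicate 2. Over the 6 libraries the log2 CPM of miR-29a-3p and miR-29c-3p had a Pearson r of 0.949 and a Spearman rho of 0.486. That r was 0.349 without NASHTofo replicate 2 and 0.351 without the 2 libraries farthest from the median of miR-29a-3p, so it rests on NASHTofo replicate 2. The uncertain assignment of reads between guides that differ at 1 base applies to this ratio too.

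Over the 6 libraries together passenger arms were rarer than their guides, by a small margin for miR-29c-5p and a wide margin for the others. miR-29c-5p was the single member whose groups did not overlap, 1 of 6 tested beside 12% of all tested miRNAs. It did not pass the threshold: 0 of 6 tested members did, beside 0% of all. The summed passengers had 13.6, 17.9 and 14.3 CPM in NASHTofo replicates 1, 2 and 3 and 22.4, 15.4 and 16.1 CPM in NASH replicates 1, 2 and 3. The groups overlapped through NASHTofo replicate 2, and the log2 difference was -0.23 ± 0.21 (SE, exact permutation p = 0.4). It was -0.34 without NASHTofo replicate 2, -0.15 without NASHTofo replicate 1 and -0.06 without NASH replicate 1.

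mmu-miR-29c-5p, the passenger of the chromosome 1 cluster opposite miR-29c-3p, had 120, 43 and 162 reads in NASHTofo replicates 1, 2 and 3, against 357, 134 and 183 reads in NASH replicates 1, 2 and 3. After scaling it stood at 8.87, 6.41 and 8.96 CPM in NASHTofo and at 15.7, 9.80 and 11.9 CPM in NASH. All 3 NASHTofo libraries lay below the lowest NASH library. The means were 8.08 ± 1.45 CPM in NASHTofo and 12.5 ± 3.00 CPM in NASH (SD, n = 3 each). On the log2 scale the difference was -0.62 ± 0.25 (SE), a fold of 0.652 with a 95% interval from 0.438 to 0.972. In edgeR the unadjusted p was 0.0388, the adjusted p was 0.854, and the exact permutation p was 0.1. It was 1 of 6 tested members with an unadjusted p under 0.05, beside 5% of all tested miRNAs in either direction and 2.39% in the lower one. The log2 fold change was -0.49 without NASHTofo replicate 2 and -0.40 without NASH replicate 1, the highest library.

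mmu-miR-29b-1-5p, from the chromosome 6 cluster, had 2.44, 6.26 and 3.10 CPM in NASHTofo replicates 1, 2 and 3 and 3.08, 2.05 and 1.43 CPM in NASH replicates 1, 2 and 3. NASHTofo replicate 2 was the highest, and NASH replicate 1 lay inside the NASHTofo range. Its log2 fold change of 0.78 ± 0.45 was the largest in size among the 6 tested members and had the largest standard error (edgeR, adjusted p = 0.854), with a 95% interval of the fold from 0.839 to 3.51. It was 0.33 without NASHTofo replicate 2 and 1.16 without NASH replicate 1.

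mmu-miR-29b-2-5p, from the chromosome 1 cluster, had 2.07, 4.47 and 2.05 CPM in NASHTofo replicates 1, 2 and 3, against 2.77, 3.07 and 2.53 CPM in NASH replicates 1, 2 and 3. The NASH libraries lay between the NASHTofo libraries. Its log2 fold change was -0.02 ± 0.37 (edgeR, adjusted p = 0.996). With NASHTofo replicate 2 left out it was -0.44.

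mmu-miR-29a-5p was near the limit of detection in spite of the abundance of its guide. It had 3, 5 and 4 reads in NASHTofo replicates 1, 2 and 3, against 19, 7 and 4 reads in NASH replicates 1, 2 and 3. The exact 95% Poisson interval for 3 reads runs from 0.619 to 8.77 and that for 19 reads from 11.4 to 29.7, which covers counting error only. In CPM it was 0.222, 0.746 and 0.221 in NASHTofo and 0.836, 0.512 and 0.260 in NASH, so the groups overlapped through NASHTofo replicate 2. NASHTofo replicates 1 and 3 lay below all NASH libraries, on 3 and 4 reads. It failed the filter on low counts and was not tested in edgeR, and its difference of log2 CPM was -0.53 (exact permutation p = 0.5).

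**Figure D2:**
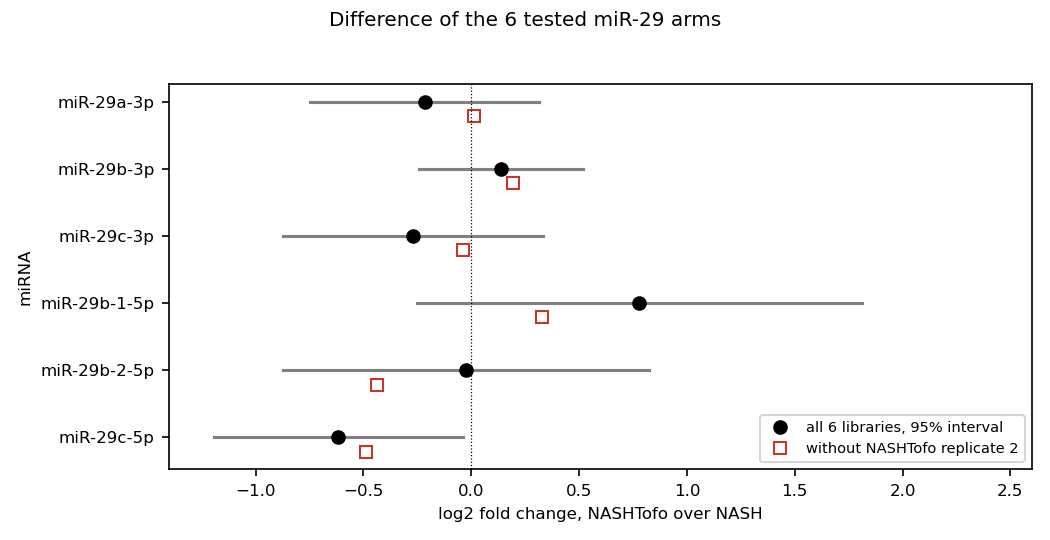
Log2 fold change (horizontal axis, NASHTofo over NASH) of the 6 miR-29 arms that passed the filter; circles with lines are the edgeR estimates over 6 libraries with their 95% intervals, and open squares are the estimates without NASHTofo replicate 2. Of the 6 intervals, that of miR-29c-5p alone lies below 0, and the estimate for miR-29a-3p is 0.01 without NASHTofo replicate 2 and -0.22 with it.

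The passenger copies from the 2 miR-29b hairpins can be set against each other within a library, which needs no scaling. For each read of miR-29b-2-5p (chromosome 1) there were 1.18, 1.40 and 1.51 reads of miR-29b-1-5p (chromosome 6) in NASHTofo replicates 1, 2 and 3, and 1.11, 0.667 and 0.564 in NASH replicates 1, 2 and 3. All NASHTofo ratios exceeded all NASH ratios, the closest being NASHTofo replicate 1 and NASH replicate 1. The means were 1.36 ± 0.170 in NASHTofo and 0.781 ± 0.291 in NASH (SD, n = 3 each), a log2 difference of 0.86 ± 0.31 (SE). This ratio was formed after its values were seen and is given as a description. Its exact permutation p of 0.1 is the smallest possible with 20 arrangements and carries no weight for a ratio formed this way. The ratio rests on 22 to 70 reads of miR-29b-1-5p and 28 to 63 of miR-29b-2-5p per library. The uncertain assignment of reads between these near copies applies to it. The log2 difference stayed between 0.66 and 1.15 with each library left out in turn, and it was 0.84 without NASHTofo replicate 2.

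Among passenger reads, the share of miR-29c-5p was 54.5% ± 16.2 in NASHTofo and 69.1% ± 5.21 in NASH (SD, n = 3 each). The share of miR-29b-1-5p was 24.9% ± 8.98 in NASHTofo and 11.96% ± 2.69 in NASH. The share of miR-29b-2-5p was 18.2% ± 5.94 in NASHTofo and 16.0% ± 3.77 in NASH. The smallest share was that of miR-29a-5p, at 2.45% ± 1.49 in NASHTofo and 2.89% ± 1.12 in NASH. As shares of 1 total these values are tied to each other.

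Arm usage, the 5p count over the 3p count of a hairpin, was tested with limma over 136 hairpins, and 0 (0%) passed an adjusted p of 0.05. Of the 4 miR-29 hairpins, 3 had enough reads in the lower arm to enter. For Mir29c there were 0.632, 0.827 and 0.598 reads of miR-29c-5p per read of miR-29c-3p in NASHTofo replicates 1, 2 and 3, and 1.141, 0.647 and 0.744 in NASH replicates 1, 2 and 3. The groups overlapped, and passenger reads outnumbered guide reads in NASH replicate 1 alone. The log2 difference in limma was -0.27 ± 0.30 (SE, adjusted p = 0.965). It was -0.41 without NASHTofo replicate 2, -0.18 without NASHTofo replicate 3, -0.03 without NASH replicate 1 and -0.44 without NASH replicate 2, so its size rests on NASH replicate 1.

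The other hairpins of the family showed no difference past the threshold either. Per 100 reads of miR-29b-3p there were 6.68, 17.1 and 6.90 reads of miR-29b-1-5p in NASHTofo replicates 1, 2 and 3, and 8.97, 5.92 and 3.74 in NASH replicates 1, 2 and 3. On the same scale, miR-29b-2-5p had 5.67, 12.2 and 4.56 reads in NASHTofo replicates 1, 2 and 3, and 8.08, 8.88 and 6.62 in NASH replicates 1, 2 and 3. NASHTofo replicate 2 was the highest of the 6 libraries in both ratios. The log2 differences in limma were 0.65 ± 0.48 (adjusted p = 0.965) for Mir29b-1 and -0.18 ± 0.40 (adjusted p = 0.987) for Mir29b-2. For Mir29b-1 the difference was 0.21 without NASHTofo replicate 2 and 0.34 without NASH replicate 3. For Mir29b-2 it was -0.60 without NASHTofo replicate 2 and 0.11 without NASHTofo replicate 3. For Mir29a, reads of miR-29a-5p per 1000 of miR-29a-3p were 0.313, 1.68 and 0.253 in NASHTofo replicates 1, 2 and 3, and 1.11, 0.603 and 0.347 in NASH replicates 1, 2 and 3. Summed over the family there were 2.33 ± 1.16 passenger reads per 100 guide reads in NASHTofo and 2.17 ± 0.553 in NASH (SD, n = 3 each). By library this was 1.79, 3.67 and 1.53 in NASHTofo replicates 1, 2 and 3, and 2.79, 1.72 and 2.01 in NASH replicates 1, 2 and 3. The higher NASHTofo mean thus rests on NASHTofo replicate 2.

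**Figure D3:**
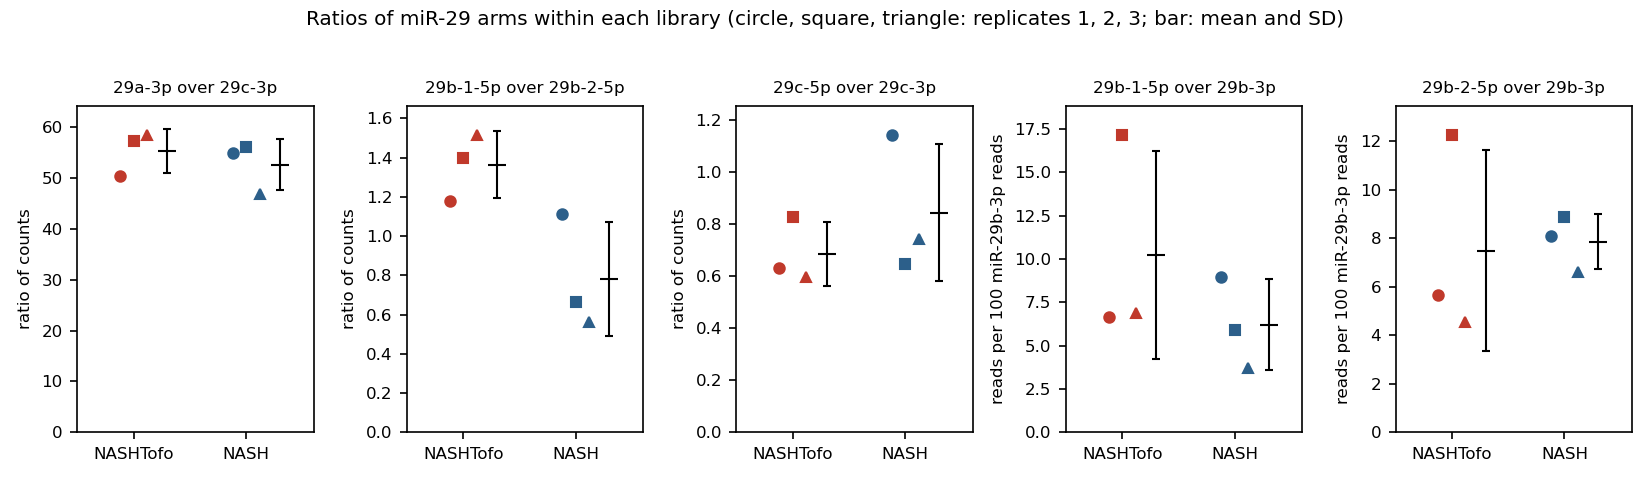
Ratios of counts between miR-29 arms (vertical axes, starting at 0) in each NASHTofo and NASH library; circles, squares and triangles are replicates 1, 2 and 3, and bars are the mean with the SD. The ratio of miR-29a-3p to miR-29c-3p overlaps between the groups, while that of miR-29b-1-5p to miR-29b-2-5p lies between 1.18 and 1.51 in NASHTofo and between 0.564 and 1.11 in NASH. The latter ratio was formed after its values were seen and is given as a description.

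The 4 hairpins differed far more among themselves in arm usage than the groups did. With the 6 libraries together, the 5p arm took 43.9% of the reads of both arms for Mir29c, 6.89% for Mir29b-1, 6.58% for Mir29b-2 and 0.0611% for Mir29a. Reads of miR-29b-3p come from both loci, so the values of Mir29b-1 and Mir29b-2 are each set against the same guide reads and are lower bounds for the single hairpin. Over 211 hairpins with a mean of at least 100 reads in both arms together, the lower arm had a median share of 0.645%. A smaller share of the lower arm was seen in 208 of these hairpins (98.6%) than in Mir29c, and in 59 (28.0%) than in Mir29a. As counted, Mir29a and Mir29c lie far apart in arm usage. Their guides differ at 1 base, so the uncertain assignment of reads between miR-29a-3p and miR-29c-3p applies to both shares.

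**Figure D4:**
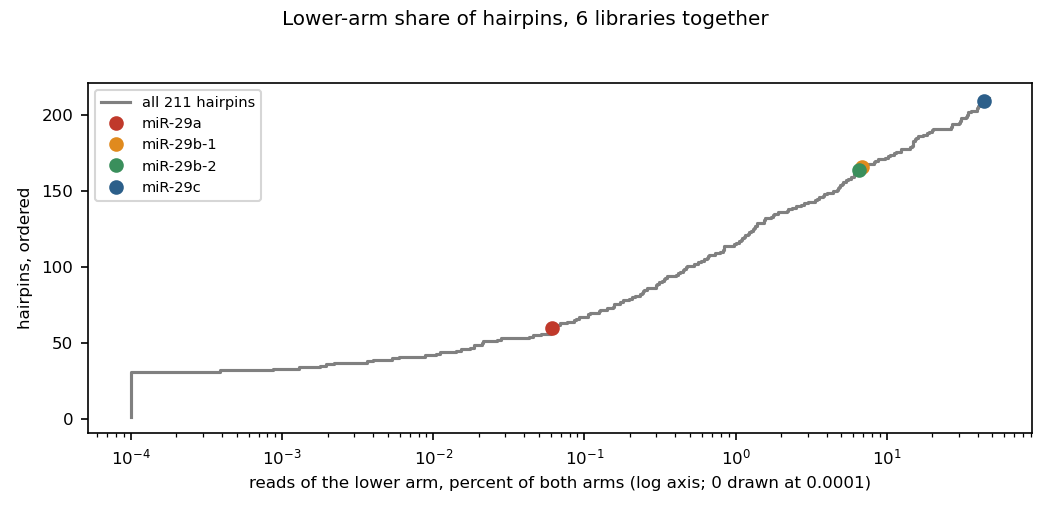
Share of the lower arm in the reads of both arms (horizontal axis, percent, log scale, with 0 drawn at 0.0001) for 211 hairpins ordered by that share (vertical axis, place in the order), 6 libraries together; the line is all hairpins and the 4 dots are the miR-29 hairpins. Mir29c lies near the top at 43.9% and Mir29a in the lower part at 0.0611%, with the assignment of reads between their guides uncertain.

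The miRNAs whose log2 CPM ran most like each guide over the 6 libraries were named by Pearson's r among the other 459 tested, as a description, since all values of a library share its depth. For miR-29a-3p they were miR-27b-3p (r = 0.9995, Spearman rho = 1), miR-191-3p (r = 0.996, rho = 0.943) and miR-30a-3p (r = 0.995, rho = 0.886). The level of miR-27b-3p was 17949, 10432 and 22300 CPM in NASHTofo replicates 1, 2 and 3, and 19270, 21952 and 19072 CPM in NASH replicates 1, 2 and 3. The order of the libraries was the same as for miR-29a-3p, and r was 0.998 without NASHTofo replicate 2 and 0.9999 without NASHTofo replicates 2 and 3, the libraries farthest from the median. In all, 48 miRNAs had an r of at least 0.9 with miR-29a-3p.

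For miR-29c-3p the nearest were miR-30e-3p (r = 0.996, rho = 0.943), miR-7075-3p (r = 0.989, rho = 0.829) and miR-200a-3p (r = 0.985, rho = 1). Without NASHTofo replicate 2 these r values were 0.898, 0.693 and 0.970, and without NASHTofo replicate 2 and NASH replicate 3, the farthest from the median, they were 0.760, 0.130 and 0.995. The likeness to miR-7075-3p thus rests on those libraries. For miR-29b-3p, r was 0.256 with miR-29a-3p and 0.183 with miR-29c-3p. Without NASHTofo replicate 2 these were 0.462 and 0.368, beside 0.349 between miR-29a-3p and miR-29c-3p. Its nearest were miR-214-3p (r = 0.947, rho = 0.829), miR-28a-3p (r = 0.902, rho = 0.829) and miR-598-3p (r = 0.880, rho = 0.6). Without NASHTofo replicate 3 and NASH replicate 1 their r values were 0.317, 0.376 and 0.759, so the likeness to miR-214-3p and miR-28a-3p rests on those libraries.

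Over the 6 libraries, r of both miR-29b passengers with miR-29a-3p and miR-29c-3p lay below 0. It was -0.730 between miR-29b-1-5p and miR-29a-3p, -0.766 between miR-29b-2-5p and miR-29a-3p, and -0.807 between miR-29b-2-5p and miR-29c-3p. Without NASHTofo replicate 2 these 3 values were 0.246, 0.149 and 0.125, so their sign rests on this library. Between miR-29b-1-5p and miR-29c-3p r was -0.891 (rho = -0.829). That r was -0.766 without NASHTofo replicate 2 and -0.397 without NASHTofo replicate 2 and NASH replicate 3.

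No other miRNA of the fibrosis lists passed the threshold. The 6 tested miR-29 members had a median log2 fold change of -0.12 (2 above 0, 4 below), and all 460 tested miRNAs a median of -0.01. Of 16 miRNAs described as raised in or promoting renal fibrosis, 12 were tested, 0 passed the threshold, 7 were above 0 and 5 below, and the median was 0.04. The smallest p in that list belonged to miR-382-5p, at 0.925 ± 0.300 CPM in NASHTofo and 1.66 ± 0.458 CPM in NASH (SD, n = 3 each). The log2 fold change of miR-382-5p was -0.79 ± 0.41 (edgeR, adjusted p = 0.854). It was followed by miR-212-3p, with a log2 fold change of 0.65 ± 0.41 (edgeR, adjusted p = 0.854).

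Of 16 other miRNAs described as limiting matrix production, 15 were tested, 0 passed, 7 were above 0 and 8 below, and the median was -0.03. The smallest p values belonged to miR-200c-3p and miR-429-3p, epithelial miRNAs that repress Zeb1 and Zeb2. miR-200c-3p stood at 1059 ± 238 CPM in NASHTofo and 856 ± 18.6 CPM in NASH (SD, n = 3 each), which gave 0.31 ± 0.17 as log2 fold change. It was 0.12 without NASHTofo replicate 2 and 0.47 without NASHTofo replicate 3. For miR-429-3p the log2 fold change was -0.16 ± 0.11, and in edgeR the adjusted p was 0.854 for miR-200c-3p and 0.859 for miR-429-3p.

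Markers of the cells that cortex can hold were read beside the guides, and no list had a member past the threshold in edgeR. The 6 tubule markers, with 158789 to 196685 CPM in NASHTofo and 175453 to 183500 CPM in NASH, had the highest sum of any list in every library. Of that sum miR-10a-5p alone made up 48.3%. The other 5 together had 76067 to 111840 CPM in NASHTofo and 88549 to 92884 CPM in NASH. Of the 6 tubule markers, 3 had a log2 fold change above 0 and 3 one below it (median 0.07). The smallest p values among them were those of miR-204-5p and miR-30a-5p: miR-204-5p had a log2 fold change of 0.69 ± 0.15 (edgeR, adjusted p = 0.387) and miR-30a-5p 0.18 ± 0.21, which was -0.08 without NASHTofo replicate 2. The 5 fibroblast and smooth muscle markers summed to 32664 to 59773 CPM in NASHTofo and 53840 to 58167 CPM in NASH, and the lowest value was that of NASHTofo replicate 2, in which miR-29a-3p and miR-29c-3p were also lowest. A single smooth muscle miRNA, miR-143-3p, named after its values were seen, made up 97.2% of that sum, with 31421 CPM in NASHTofo replicate 2 and 52227 to 58181 CPM in the other 5 libraries. The other 4 markers together had 1244 CPM in NASHTofo replicate 2 and 1302 to 1613 CPM in the other 5 libraries, and miR-214-3p was not lowest in it. In that list 3 markers had a log2 fold change above 0 and 2 one below it (median 0.06). The smallest p values belonged to miR-145a-5p, at 0.17 ± 0.14 on the log2 fold scale (0.06 without NASHTofo replicate 2), and to miR-214-3p, at 0.20 ± 0.19 (0.10 without NASHTofo replicate 3 and 0.31 without NASHTofo replicate 1). The liver marker miR-122-5p stood at 245 CPM in NASHTofo replicate 2 and at 40.7 to 78.6 CPM in the other 5 libraries, and its log2 fold change was 1.07 ± 0.65 (edgeR, adjusted p = 0.854), against -0.18 without that library. Its part in the values of the guides was not tested.

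The 6 leukocyte markers summed to 1315 to 1477 CPM in NASHTofo and 1554 to 2765 CPM in NASH, without overlap. Of that sum miR-146a-5p alone made up 92.4%. The other 5 markers together had 113 to 161 CPM in NASHTofo and 122 to 149 CPM in NASH, with overlap. Of these 6, 1 had a log2 fold change above 0 and 5 one below it (median -0.30). The smallest p values were those of miR-146a-5p, induced by NF-κB and a brake on it, with a log2 fold change of -0.60 ± 0.22, and miR-142-5p at -0.63 ± 0.31 (edgeR, adjusted p = 0.854 for each). Without NASH replicate 2 they were -0.27 and -0.23. Erythroid markers summed to 165 to 451 CPM in NASHTofo and 91.3 to 326 CPM in NASH, and the highest was NASHTofo replicate 2. In that list miR-3107-5p and miR-486-5p, alike in sequence, had close levels, with means of 149 and 139 CPM in NASHTofo and 94.0 and 88.2 CPM in NASH. The sum may count reads that both names share more than once, so they are not separate observations. Their log2 fold changes were 0.67 ± 0.51 for miR-3107-5p and 0.65 ± 0.50 for miR-486-5p. These were 0.23 and 0.22 without NASHTofo replicate 2 and 1.32 and 1.3021 without NASH replicate 3. Endothelial markers ranged from 15286 to 20925 CPM in NASHTofo and from 18258 to 22210 CPM in NASH, with miR-126a-3p at -0.14 ± 0.14 (-0.23 to -0.03 with each library left out, the value nearest 0 being that without NASHTofo replicate 2) and miR-126a-5p at -0.002 ± 0.12 on the log2 fold scale. Striated muscle markers ranged from 92.2 to 120 CPM in NASHTofo and from 97.0 to 126 CPM in NASH, with miR-206-3p at 0.26 ± 0.37 (0.14 without NASHTofo replicate 1 and 0.48 without NASHTofo replicate 3) and miR-1a-3p at -0.02 ± 0.17. None of these markers was at 0 in all libraries. Of the endothelial sum miR-126a-3p made up 98.7%, and of the striated muscle sum miR-1a-3p made up 97.9%.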

How the data were processed

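Each library had a deposited table of read counts, whole numbers that the authors had not normalized. A table had 2033 rows, 1 per pair of mature miRNA and precursor, and 75 names occurred in several rows. For each name the largest count of a library was kept, and the 2 rows of miR-29b-3p differed by 1 to 5 reads. Per the labels' protocols, RNA came from a NucleoSpin miRNA kit and libraries from a NEBNext small RNA kit. The submitters' processing notes name cutadapt 1.14 and mm10. The aligner, the counter and the miRBase release were not given in the sources used here. Per the series' design text there were 3 mice per group.

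The main test was edgeR 4.0.16 (R 4.3.3) on counts, with its quasi-likelihood F-test, TMM factors and no covariates, over all 6 libraries as NASHTofo minus NASH. p-values are 2-sided and adjusted after Benjamini and Hochberg over the 460 miRNAs that filterByExpr kept (minimum count 10, minimum total 15), and the threshold was 0.05. At most 0.00905% of a library's counts were removed. A standard error is the size of the log2 fold change over the root of F. For log2 CPM a prior count of 2 was added. Arm usage was fitted with limma 3.58.1 as log2 of 5p over 3p, a pseudocount of 1 being added to both counts, where the lower arm averaged 10 counts or more. Sums and ratios were compared by exact permutation of log2 values. Both fits were also run on simulated data, with a common dispersion for counts and a normal spread for arm ratios. No simulated library stood apart as NASHTofo replicate 2 does, so these runs do not show how the tests behave on these data.

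The members and lists were chosen with earlier results of these data known. Named miRNAs are the 7 members, the 3 nearest in correlation to each guide, and in each list those past the threshold or, failing that, the 2 with the smallest p. miR-142a, miR-486a and miR-486b of the lists are called miR-142, miR-486 and miR-3107 in the tables. Alternatives were RLE or upper quartile factors, scaling to totals, no filter or 10 CPM in 3 libraries, DESeq2 1.42.0, limma-voom, summed rows, other arm settings, the replicate block and leaving out each library.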

Additional observations from a re-analysis of the deposited data

How the results depend on the processing

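No miR-29 arm passed an adjusted p of 0.05 under any alternative run (86 values, of which 6 changed sign). For miR-29c-5p the adjusted p ran from 0.313 to 0.988, and the log2 fold change lay between -0.74 and -0.40 when single libraries were dropped. The count of miRNAs past the threshold was 0 in edgeR (23 at an unadjusted p under 0.05), 10 with no filter on low counts (63) and 2 with DESeq2 (28), none of them a miR-29 arm. Among list members, miR-122-5p, miR-204-5p and miR-146a-5p passed with no filter and miR-204-5p with DESeq2. With a library left out it stayed at 0, with 11 to 75 at an unadjusted p under 0.05. The guide sum turned to 0.013 without NASHTofo replicate 2 and lay between -0.46 and 0.013 with a library left out. The ratio of miR-29a-3p to miR-29c-3p turned to -0.0075 without NASH replicate 3 and lay between -0.0075 and 0.14. With repeated rows summed, miR-29b-2-5p was at 0.017, miR-1a-3p at 0.015 and miR-126a-5p at 0.033. miR-126a-5p was also at 0.0098 with RLE factors, at 0.010 with DESeq2 and at 0.0010 with limma-voom. With a library left out, values that changed sign ranged from -0.42 to 0.014 for miR-29a-3p, -0.44 to 0.22 for miR-29b-2-5p, -0.080 to 0.39 for miR-30a-5p, 0.0050 to 0.048 for miR-126a-5p, -0.18 to 1.4996 for miR-122-5p, -0.061 to 0.11 for miR-1a-3p and -0.60 to 0.11 for the arm ratio of Mir29b-2. The cause of these changes was not tested. With the replicate block, 0 miRNAs passed and 10 had an unadjusted p under 0.05, and miR-29c-5p was at -0.61 (edgeR, adjusted p = 0.961). Deviations of same-numbered libraries correlated at 0.003, -0.14 and -0.17, and whether these libraries share more than a number cannot be told from these values. Depth limits miR-29a-5p, which had 3 to 19 reads a library and was at -0.63 with no filter (edgeR, adjusted p = 0.871).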
